A study of Mus musculus with 3 samples.

Results

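Chemokines and their receptors were followed in activated CD4 T cells as a set of 9 genes, chosen by symbol from the 23282 gene rows of the series. The set holds 4 chemokine ligands (Ccl3, Ccl4, Ccl5 and Xcl1) and 5 receptors (Ccr2, Ccr4, Cxcr3, Cxcr4 and Cxcr6). CD4 T cells came from the spleen and lymph nodes of C57BL/6 mice (C57BL/6J in the study's methods, which describe its mice as female), were stimulated with 2 µg/ml anti-CD3 and anti-CD28, and were cultured for 72 h in one of 3 media. Complete medium (CM) is RPMI-1640 with 10% fetal bovine serum. Dialyzed medium (DM) combines an amino acid-free RPMI with dialyzed serum, which has lost its small molecules. The third medium, DM+Met, adds 30 µM methionine to DM, which by the study's own measurement was not free of methionine. Each medium has 2 libraries made with a 3′-end kit, which yields a read near the end of a transcript whatever its length.

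Chemokines are small secreted proteins that direct the movement of leukocytes. They bind 7-transmembrane receptors that signal through Gi proteins, and in T cells receptor use changes as a naive cell becomes an effector cell. Ccl3, Ccl4 and Ccl5 are inflammatory chemokines made by activated T cells, and Xcl1 acts on Xcr1 of cross-presenting dendritic cells. Ccr2 binds Ccl2 and its relatives, Ccr4 binds Ccl17 and Ccl22, and Cxcr3 binds Cxcl9, Cxcl10 and Cxcl11. Cxcr4 binds Cxcl12, and Cxcr6 binds Cxcl16.

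The genes are placed by the mouse annotation GENCODE M21 (GRCm38). Chromosome 11 holds 3 of the ligands in a cluster, Ccl5 (chr11:83525778-83530518, minus strand), Ccl3 (chr11:83647844-83649355, minus) and Ccl4 (chr11:83662584-83664683, plus), with 13229 bases between Ccl3 and Ccl4. Chromosome 9 holds Ccr4 (chr9:114490316-114504916, minus), Cxcr6 (chr9:123806475-123811760, plus) and Ccr2 (chr9:124101950-124113557, plus). Cxcr4 (chr1:128588199-128592293, minus) and Xcl1 (chr1:164931644-164935527, minus) are on chromosome 1, and Cxcr3 (chrX:101731535-101734269, minus) is on the X chromosome. Xcl1 is overlapped by the antisense gene Gm20743, and Cxcr6 lies inside Fyco1, which is read from the other strand. How strand was treated in the counting is not given in the sources used here, so reads of these genes and their partners cannot be told apart.

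Ccl3 and Cxcr4 were the only members that passed the test in DM against CM, so the bases before their start sites are shown. Both calls were lost in most fits that left out a library, as given below. The sequences are from a set of RefSeq promoters (GRCm38.p6) that had entries for 7 of the 9 members, without Ccl4 and Ccl5. They run for 250 bases up to the start site on the strand of the gene, at chr11:83649379-83649628 for Ccl3 and chr1:128592300-128592549 for Cxcr4. Capitals mark matches, on either strand, to the letters searched.
Ccl3: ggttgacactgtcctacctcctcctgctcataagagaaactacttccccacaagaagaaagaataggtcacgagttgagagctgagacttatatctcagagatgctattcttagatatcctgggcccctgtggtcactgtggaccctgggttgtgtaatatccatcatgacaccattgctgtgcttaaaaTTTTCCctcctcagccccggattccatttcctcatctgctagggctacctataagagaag
Cxcr4: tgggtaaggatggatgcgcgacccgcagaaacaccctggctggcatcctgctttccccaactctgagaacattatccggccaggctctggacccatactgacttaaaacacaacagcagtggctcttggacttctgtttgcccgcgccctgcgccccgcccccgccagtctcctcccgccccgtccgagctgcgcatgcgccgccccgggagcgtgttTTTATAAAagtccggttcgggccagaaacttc
The letters were TATAAA (the TATA box), TGACTCA (bound by AP-1), GGAAAA (bound by NFAT), GGANTTTCC (bound by NF-kB) and TCACACC (bound by T-box factors). The Ccl3 window held 1 match, to the NFAT letters on the other strand, with its first base at −60, and 20.4% of 32851 promoter windows held one. The Cxcr4 window held the TATA letters at −30 and, overlapping them on the other strand, at −32, and 12.4% of windows held them. Of the other windows, that of Ccr4 held the AP-1 letters (4.46% of windows), that of Xcl1 the T-box letters (3.33%) and that of Ccr2 the NFAT letters, and none of the 7 held the NF-kB letters (1.07%). A match is a description of the letters and not of a bound site.

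Depth was 8504742 to 12377285 reads per library. The ribosomal RNA precursor Rn45s took 15.5% and 20.1% of reads in the DM+Met libraries and 31.0% to 38.3% in the other 4. DM library 2 correlated more closely with the DM+Met libraries across rows (r = 0.947 and 0.940) than with DM library 1 (r = 0.919). DM library 1 was likewise closer to the DM+Met libraries (r = 0.925 and 0.921) than to DM library 2. Several members' differences are given without DM library 1 too. The 10 T cell markers were read in every library, with Cd4 at 1584 reads or more. Their summed level was 2370 and 2500 CPM in CM, against 3140 and 2750 in DM, with 3030 and 3030 in DM+Met. Within that list Cd5 (1.42), Cd2 (0.84) and Cd3g (0.72) were called higher and Cd28 (−0.53) lower in DM. In DM+Met Cd5 (1.13) and Cd2 (0.96) were called higher. Each of these T cell marker calls was lost when some library was left out. Markers of other cells were also read. The 10 markers of CD8 T and NK cells summed to 120 and 134 CPM in CM, against 47.3 and 50.1 in DM, with 65.9 and 66.4 in DM+Met. Within that list Cd8a (−1.72 in DM and −1.76 in DM+Met) and Nkg7 (−3.48 and −1.47) were called lower, while the NK receptor gene Klrb1c, with no read in CM, had 17 and 22 reads in DM and was called higher in DM+Met (45 and 34 reads), and the median difference over the 8 tested was 0.26 in DM and 0.69 in DM+Met. Of these calls only that of Nkg7 in DM was kept whichever library was left out (−3.67 to −3.29). Those of Cd8a in both media and of Nkg7 in DM+Met were lost whichever library was left out. That of Klrb1c was lost without either CM or either DM+Met library. The 10 macrophage and monocyte markers summed to 31.1 and 23.6 CPM in CM and 45.2 to 59.6 in the other 4 libraries. B cell markers summed to 80.4 to 139 CPM with Pax5 at 0 throughout, and among them Fcer2a (3.05) and Cr2 (2.87) were called higher in DM, and Fcer2a (2.30) higher and Cd22 (−2.08) lower in DM+Met. The calls of Fcer2a in both media were lost without any library except CM library 1, and that of Cr2 without any except CM library 2. That of Cd22 was lost without either CM or either DM+Met library. Dendritic cell markers summed to 177 and 218 CPM in CM, against 129 and 104 in DM, with 144 and 141 in DM+Met, and Clec9a and Cd209a were at 0 throughout. In CM and DM most of that sum was H2-Ab1, an MHC class II gene that B cells also express. H2-Ab1 was called lower in DM (−1.32) and in DM+Met (−1.74). The call in DM was lost without either CM library or DM library 2, and that in DM+Met without DM+Met library 2. H2-Ab1 was at 51.1 and 45.4 CPM in DM+Met, where Ccl22 was higher, at 65.3 and 59.3 CPM. Without H2-Ab1 and the chemokine Ccl22 the sum was 13.6 and 20.2 CPM in CM, against 19.8 and 15.8 in DM, with 27.9 and 36.2 in DM+Met. The part of these cells in the results was not tested, and in such bulk libraries fewer cells of a type and less RNA per cell cannot be told apart.

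The levels of the 4 ligands are given as the deposited log2(CPM + 1), where CPM is a gene's reads relative to the scaled library size, with the reads behind them. Ccl3, which encodes MIP-1α, was at 1.99 and 0.92 in CM (26 and 7 reads), against 3.69 and 3.57 in DM (117 and 123 reads), with 3.09 and 3.39 in DM+Met (90 and 113 reads). Both CM libraries were below all 4 libraries of the dialyzed media, and DM lay above DM+Met without overlap. Ccl4, which encodes MIP-1β, was at 3.35 and 3.01 in CM (81 and 55 reads), against 2.56 and 2.73 in DM (48 and 64 reads), with 3.08 and 3.63 in DM+Met (89 and 135 reads). The DM libraries were the lowest pair for Ccl4, while CM and DM+Met overlapped. Ccl5, which encodes RANTES, was at 4.66 and 5.04 in CM, against 5.26 and 4.78 in DM, with 5.53 and 5.50 in DM+Met (213 to 539 reads in all). DM+Met held the highest pair for Ccl5, and CM and DM overlapped. Xcl1, which encodes lymphotactin, had 2 and 0 reads in CM, against 18 and 7 in DM, with 38 and 5 in DM+Met. The CM libraries were under the 3 reads that a count of 0 allows, and the DM+Met libraries were farther apart than those of any medium for another member. Gm20743, the antisense gene over Xcl1, had 15 reads in DM library 1 and none in the other 5 libraries.

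Of the receptors, Cxcr4 and Ccr4 were both lowest in DM library 1. Cxcr4, which guides cells toward Cxcl12 in bone marrow and lymphoid tissue, was at 5.90 and 6.11 in CM (514 and 533 reads), against 4.08 and 5.36 in DM (156 and 455 reads), with 5.25 and 5.21 in DM+Met (443 and 430 reads). Both CM libraries were above the other 4, DM+Met was a close pair, and the DM libraries lay on either side of it. Ccr4, used by type 2 helper and regulatory T cells, was at 5.19 and 5.23 in CM, against 4.26 and 4.95 in DM, with 5.31 and 5.15 in DM+Met (178 to 463 reads). CM and DM+Met overlapped and DM was below both.

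The remaining receptors had their lowest mean in CM. Ccr2, an inflammatory receptor of monocytes and effector T cells, was at 3.59 and 3.33 in CM, against 4.45 and 3.51 in DM, with 4.58 and 4.49 in DM+Met (71 to 273 reads). DM library 2 fell among the CM libraries and DM library 1 near DM+Met. Cxcr3, a receptor of type 1 helper cells, was at 2.35 and 1.41 in CM (36 and 13 reads), against 2.99 and 2.77 in DM (68 and 66 reads), with 3.55 and 2.98 in DM+Met (128 and 82 reads). CM was below the other 4 libraries, and DM and DM+Met overlapped. Cxcr6, a receptor of tissue-resident and effector T cells, was at 4.05 and 4.41 in CM, against 4.53 and 4.91 in DM, with 4.78 and 4.61 in DM+Met (137 to 329 reads). CM was again below the other 4. Fyco1, the gene around Cxcr6, was at 4.63 and 4.53 in CM, against 4.71 and 5.30 in DM, with 5.14 and 5.17 in DM+Met.

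**Figure D1:**
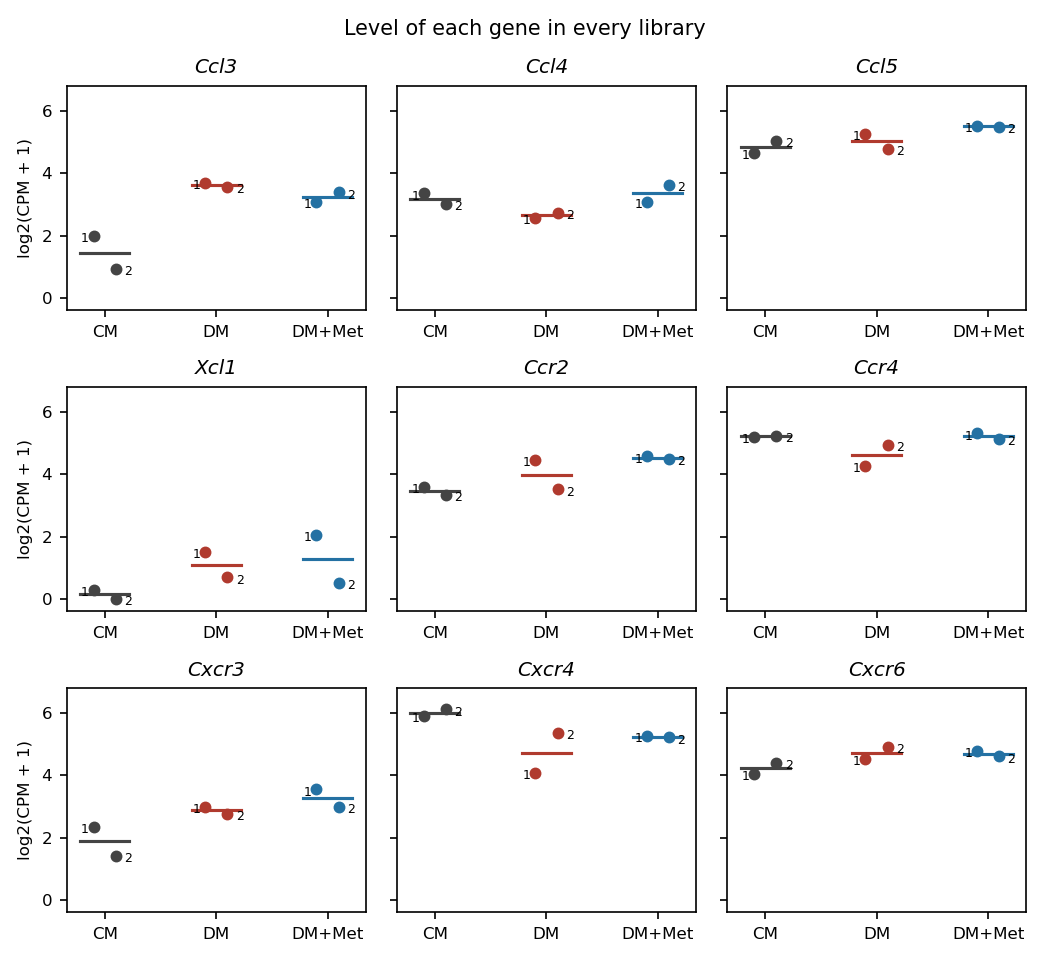
Level of each of the 9 genes in log2(CPM + 1) on the y axis, for CM, DM and DM+Met on the x axis; each point is 1 library with its number beside it, and the line is the mean of 2 libraries. The CM points of Ccl3 (1.99 and 0.92) lie below those of both dialyzed media, and the DM points of Cxcr4 (4.08 and 5.36) are far apart.

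The first comparison, DM against CM, addressed what the loss of small nutrients changes. Ccl3 rose in DM and Cxcr4 fell, and the other 7 members did not pass the test. Ccl3 was higher by 2.18 on the log2(CPM + 1) scale (SE 0.56, adjusted p = 0.0267 with limma over 12770 rows), which is 4.52-fold on CPM + 1. Cxcr4 was lower, with a difference of −1.28 (SE 0.38, adjusted p = 0.0444 with limma). The 2 calls among 9 members, 22.2%, stand beside 16.9% of all rows tested, with 1 higher beside 7.80% and 1 lower beside 9.07%, shares near those of all rows. The groups did not overlap for 7 members, while 54.1% of all rows did not overlap either.

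Of the members that did not pass, Cxcr3 (1.0, SE 0.57), Xcl1 (0.95, SE 0.66), Ccr2 (0.52, SE 0.43), Cxcr6 (0.49, SE 0.33) and Ccl5 (0.17, SE 0.29) had positive differences, and Ccr4 (−0.61, SE 0.31) and Ccl4 (−0.53, SE 0.50) negative ones. Their adjusted p-values in limma ran from 0.202 for Ccr4 to 0.724 for Ccl5. Without DM library 1 the difference was 0.05 for Ccr2, −0.26 for Ccr4, 0.55 for Xcl1 and −0.07 for Ccl5. The median difference over the 9 members was 0.49, beside 0.07 over all rows. Summed over its libraries, Xcl1 had 25 reads in DM and 2 in CM, a ratio of 9.81 with a counting interval of 2.45 to 85.5 (exact, 95%, counting error only), and the difference was not detectable over the spread between libraries. Fyco1 differed by 0.42 (adjusted p = 0.373 with limma), close to the difference of Cxcr6.

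Both calls were lost in most fits that left out a library. Leaving out a DM+Met library changed only the spread estimated in the fit, and the differences stayed at 2.18 and −1.28. The call of Ccl3 was lost without CM library 2 (1.64, adjusted p = 0.0958 with limma), DM library 1 (2.11, 0.12), DM library 2 (2.24, 0.103), DM+Met library 1 (2.18, 0.0912) or DM+Met library 2 (2.18, 0.0927), and over all its alternatives the adjusted p was 0.0201 to 0.12. The call of Cxcr4 was kept without DM library 2 (−1.93, adjusted p = 0.0355 with limma) and lost without DM library 1 (−0.64, 0.115), CM library 1 (−1.39, 0.16), CM library 2 (−1.17, 0.198) or either DM+Met library (−1.28, 0.133), within a range of 0.0195 to 0.198. The fall of Cxcr4 was thus far larger in DM library 1 than in DM library 2, whereas the difference of Ccl3 stayed between 1.64 and 2.71 in these fits. Without DM library 1 none of the 9 members was called, and 7.13% of all rows were.

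**Figure D2:**
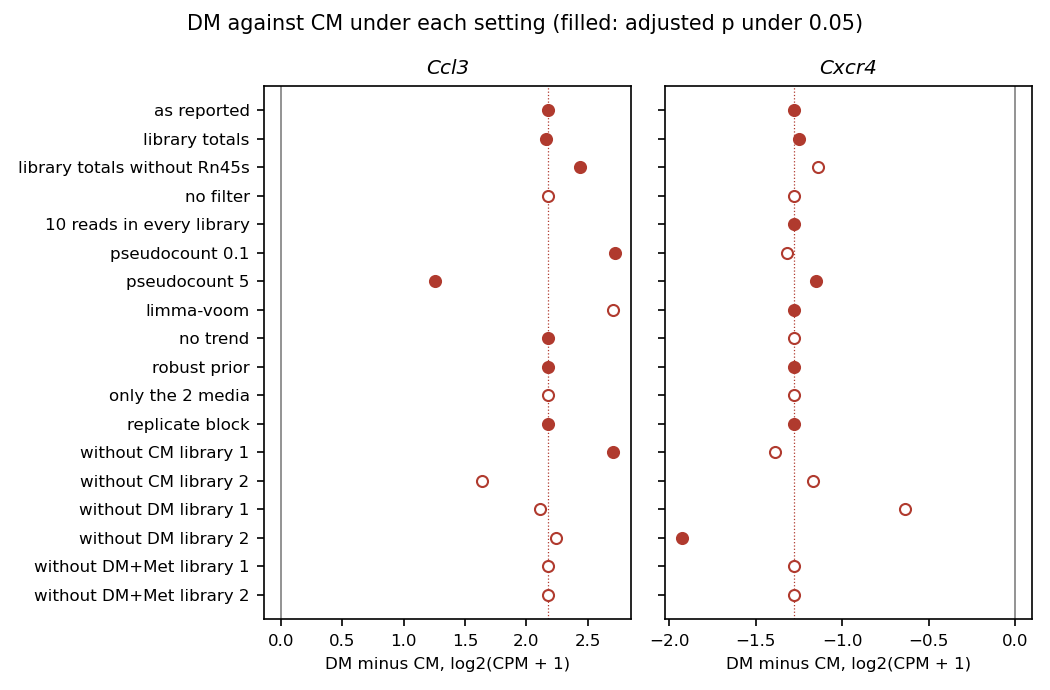
Difference of DM from CM for Ccl3 and Cxcr4 in log2(CPM + 1) on the x axis (log2 of CPM plus the named pseudocount where one is given, and log2 CPM for limma-voom), for the reported fit and each alternative on the y axis; filled points have an adjusted p under 0.05. Ccl3 has no point where 10 reads were asked of every library, and Cxcr4 moves from −0.64 to −1.93 with the DM library left out.

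The second comparison, DM+Met against DM, asked what added methionine changes in cells kept in DM. None of the 9 members was called with limma, none had an unadjusted p under 0.05 (the lowest was 0.0688, for Ccr4), and limma-voom gave 0 by both measures, while 0.0548% of all rows were called. The difference was positive for 7 members, with Ccl4 at 0.71 (95% interval −0.40 to 1.81), Ccr4 at 0.63 (−0.06 to 1.31), Ccr2 at 0.55 (−0.40 to 1.5), Cxcr4 at 0.51 (−0.33 to 1.35), Ccl5 at 0.49 (−0.15 to 1.13), Cxcr3 at 0.39 (−0.88 to 1.65) and Xcl1 at 0.19 (−1.30 to 1.67). Ccl3 had a difference of −0.39 (−1.63 to 0.86) and Cxcr6 one of −0.02 (−0.76 to 0.71), which was 0.33 under scaling by library totals. Without DM library 1 the difference was 0.28 for Ccr4, 1.02 for Ccr2, −0.13 for Cxcr4, 0.59 for Xcl1 and −0.22 for Cxcr6. The groups did not overlap for 5 members, Ccl3, Ccl4, Ccl5, Ccr2 and Ccr4, beside 41.0% of all rows. Each of the 7 positive members had an interval that held both 0 and 1 (a doubling of CPM + 1), so with 2 libraries per medium neither value could be set aside.

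The last comparison, DM+Met against CM, shares the CM libraries with the first. Again none of the 9 members passed over all rows with limma, beside 15.3% of rows, and limma-voom gave 0. Before adjustment 4 members had p under 0.05 with limma (Ccl3, Ccr2, Cxcr3 and Ccl5), beside 30.3% of all rows, and 4 with limma-voom, beside 28.8%. Ccl3 was at 1.79 above CM (SE 0.56, adjusted p = 0.0582 with limma), beside 2.18 for DM. Cxcr3 was at 1.38 (SE 0.57, adjusted p = 0.132 with limma), Ccr2 at 1.07 (SE 0.43, 0.122) and Ccl5 at 0.66 (SE 0.29, 0.154). Xcl1 was at 1.14 (SE 0.66), and its ratio of summed reads, 43 against 2, was 15 with a counting interval of 3.90 to 127. Cxcr4 was at −0.77 (SE 0.38, adjusted p = 0.203 with limma), Cxcr6 at 0.46 (SE 0.33), Ccl4 at 0.17 (SE 0.50) and Ccr4 at 0.02 (SE 0.31). The groups did not overlap for 7 members, beside 60.9% of all rows. Scaled by library totals in place of TMM, which moved the median of all rows from 0.06 to 0.41, Ccl3 (2.10), Ccr2 (1.44) and Ccl5 (1.05) passed. With Rn45s left out of the totals, 0 of the 9 members passed and the median of all rows was 0.18. Ccl3 was then at 2.01 (adjusted p = 0.0507 with limma), Ccr2 at 1.21 (0.0918) and Ccl5 at 0.79 (0.0979).

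**Figure D3:**
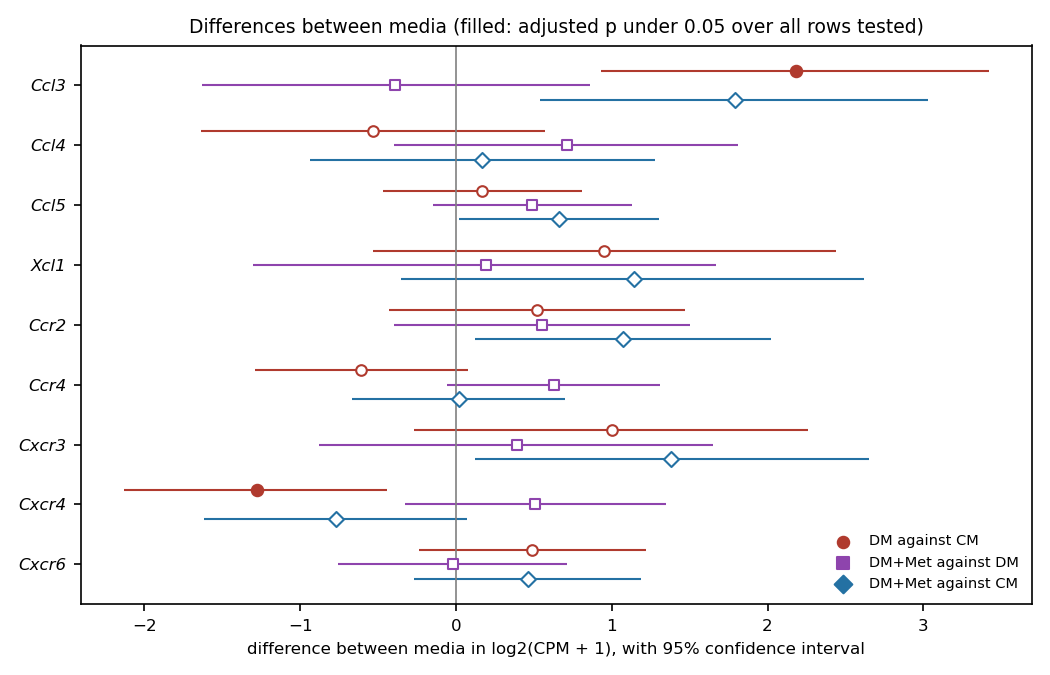
Difference between media in log2(CPM + 1) on the x axis for each member on the y axis, with the 95% confidence interval from limma; circles are DM against CM, squares DM+Met against DM and diamonds DM+Met against CM. The only filled points, those with an adjusted p under 0.05, are Ccl3 (2.18) and Cxcr4 (−1.28) in DM against CM.

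Ccl3 and Ccl4 are neighbours that are often made together, and their levels parted between the media. This pair was picked after its values were seen. Ccl3 stood at 0.321 and 0.127 reads per read of Ccl4 in CM, against 2.44 and 1.92 in DM, with 1.01 and 0.837 in DM+Met. On the log2 scale Ccl3 minus Ccl4 was −1.73 ± 0.51 (SD, n = 2) for CM, against 0.98 ± 0.21 for DM and −0.11 ± 0.18 for DM+Met. The 3 media did not overlap in any pair, with differences of 2.71 for DM against CM, −1.09 for DM+Met against DM and 1.62 for DM+Met against CM. The exact two-sided permutation p was 0.333 in each, the smallest that 2 against 2 libraries allow. Groups that do not overlap always give this p, so the test cannot decide whether the media differ. Of single rows, 54.1%, 41.0% and 60.9% did not overlap in these comparisons, and the share of gene pairs was not counted. The difference is within a library, so a scaling of the whole library hardly changes it.

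Over the 6 libraries, the members called in DM were set beside all other rows with a mean of at least 10 CPM, as a description. The rows most like Ccl3 among 7508 were Nol8 (Pearson r = 0.996) and Trove2 (r = 0.994), and 392 rows had r above 0.9. Those most like Cxcr4 were Tmco1 (r = 0.992) and Eif2ak4 (r = 0.990), of 213 rows above 0.9. Eif2ak4, which encodes the amino acid sensor GCN2, was at 4.35 and 4.63 in CM, against 2.51 and 4.01 in DM, with 3.93 and 3.80 in DM+Met. It was picked for its likeness to Cxcr4 over these same libraries, so their shared lowest value, in DM library 1, is not a separate result. Among the members, Ccr4 was the most like Cxcr4 (r = 0.85) and Cxcr3 the most like Ccl3 (r = 0.86). These points share library, depth and scaling.

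DM library 1 was the lowest of the 6 libraries for Ccl4, Ccr4 and Cxcr4 and the highest for Ccl3, 4 members in all, where 37.8% of all rows had it at one end. DM+Met library 1 was the highest for 5 members, Ccl5, Xcl1, Ccr2, Ccr4 and Cxcr3, beside 19.5% of rows. CM library 2 was at one end for 5 members, the lowest for Ccl3, Xcl1, Ccr2 and Cxcr3 and the highest for Cxcr4, beside 36.1% of rows.

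The other ligands and receptors of the chemokine system were read in the same fit. The lists here and below were chosen with earlier results of these data known, so their shares were not tested against those of all rows. Of 33 other chemokine ligands, 17 were tested and 6 had no read in any library. In DM 5 rose and 1 fell (35.3% of those tested, beside 16.9% of all rows), with a median difference of 0.95 beside 0.07 over all rows. Ccl17, the ligand of Ccr4, had 1 and 0 reads in CM, against 263 and 277 in DM, with 344 and 277 in DM+Met. The ratio of summed reads was 424 in DM (counting interval 75.8 to 16800) and 432 in DM+Met (77.2 to 17100), with adjusted p-values of 3.88e-04 and 2.45e-04 in limma. Ccl22, the other ligand of Ccr4, was at 3.87 and 4.40 in CM, against 4.99 and 5.19 in DM, with 6.05 and 5.91 in DM+Met. It was higher by 0.95 in DM (adjusted p = 0.0486 with limma), a call lost when any 1 of the 6 libraries was left out (0.69 to 1.21), and by 1.84 in DM+Met (0.00263), a call lost without DM+Met library 1 or 2 (1.58 to 2.11). Both Ccr4 ligands were thus above CM in DM, where Ccr4 itself did not pass.

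Ccl6 and Ccl9, ligands of Ccr1 often made by myeloid cells, were the other large increases. Ccl6 had 61 and 101 reads in CM, against 1247 and 826 in DM, with 1482 and 1498 in DM+Met, with log2 differences from CM of 3.21 and 3.58 (adjusted p = 4.57e-04 and 1.84e-04 with limma). Ccl9 had 23 and 25 reads in CM, against 349 and 286 in DM, with 426 and 560 in DM+Met, with differences of 2.99 and 3.43 (adjusted p = 0.00128 and 4.56e-04 with limma). The calls of Ccl17, Ccl6 and Ccl9 were kept in DM and in DM+Met whichever library was left out. Beside them, of 9 macrophage and monocyte markers tested, Lyz2 alone was called in DM (2.13, adjusted p = 0.0355 with limma), a call lost without each library except CM library 2 (1.57 to 2.69), and none was called in DM+Met.

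Cxcl2 and Ccl27a were called in DM and had values nearer to CM with methionine. Cxcl2, a neutrophil attractant, had 46 and 17 reads in CM, against 237 and 343 in DM, with 82 and 96 in DM+Met. It was higher by 2.66 in DM (adjusted p = 0.00717 with limma), a call lost without DM library 1 or 2 (2.17 to 3.14), and DM+Met against DM was −1.73 (0.339). Ccl27a, known from the skin, had 106 and 65 reads in CM, against 3 and 9 in DM, with 65 and 146 in DM+Met. It was lower by −2.85 in DM (adjusted p = 0.0112 with limma), a call lost without either CM or either DM library (−3.09 to −2.61), and DM+Met against DM was 2.59 (0.232). In DM+Met against CM 4 ligands, Ccl17, Ccl6, Ccl9 and Ccl22, were called, all higher (23.5% of those tested, beside 15.3% of all rows, 6.92% higher and 8.36% lower), and with methionine against DM none of the 17 was.

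Of the ligands of the other member receptors, those read here were not called. Cxcl12, the ligand of Cxcr4, had no read in any library, and Cxcl11 had at most 3. Cxcl10 had 83 and 0 reads in CM, against 0 and 0 in DM, with 30 and 20 in DM+Met, so the CM libraries disagreed, and it did not pass in any comparison. Cxcl9 had 5 and 9 reads in CM, against 14 and 45 in DM, with 79 and 56 in DM+Met, and Cxcl16 had 17 and 86, 93 and 228, and 224 and 142, neither passing in any comparison. Ccl2 had 14 and 21 reads in CM, against 0 and 0 in DM, with 15 and 14 in DM+Met, with a difference of −1.63 in DM (adjusted p = 0.0679 with limma).

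Of 18 other chemokine receptors 11 were tested, and 3 rose in DM and none fell (27.3%, beside 16.9% of all rows and 7.80% called higher). The same 3 were called higher in DM+Met (27.3%, beside 15.3% of all rows). Ccr7, which brings naive T cells to lymph nodes, was at 7.70 and 7.75 in CM, against 8.62 and 8.37 in DM, with 8.49 and 8.51 in DM+Met. It was higher by 0.77 in DM and by 0.77 in DM+Met (SE 0.15, adjusted p = 0.00813 and 0.00774 with limma). Ccr6, used by Th17 and B cells, had 44 and 33 reads in CM, against 185 and 265 in DM, with 218 and 270 in DM+Met, with differences of 1.97 and 1.93 (adjusted p = 0.0104 and 0.0111 with limma), beside the B cell markers Fcer2a and Cr2 above. Ccr9, the gut-homing receptor, had 2 and 0 reads in CM, against 40 and 91 in DM, with 44 and 71 in DM+Met. Its ratio of summed reads was 51.4 in DM (counting interval 14 to 429) and 40 in DM+Met (10.8 to 334), with adjusted p-values of 0.0165 and 0.0253 in limma. Each of these calls was lost on leaving out some library. The call of Ccr7 in DM was lost without either CM library (0.65 to 0.90 over the 6), that of Ccr6 without either DM or either DM+Met library (1.82 to 2.12), and that of Ccr9 without any library except DM library 1 (2.20 to 3.03). In DM+Met those of Ccr7 (0.75 to 0.80) and Ccr9 (2.08 to 2.65) were lost without either CM or either DM+Met library, and that of Ccr6 (1.78 to 2.08) without CM library 2 or either DM+Met library.

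Xcr1, the receptor of Xcl1, had 7 to 46 reads in each library and did not pass.

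**Figure D4:**
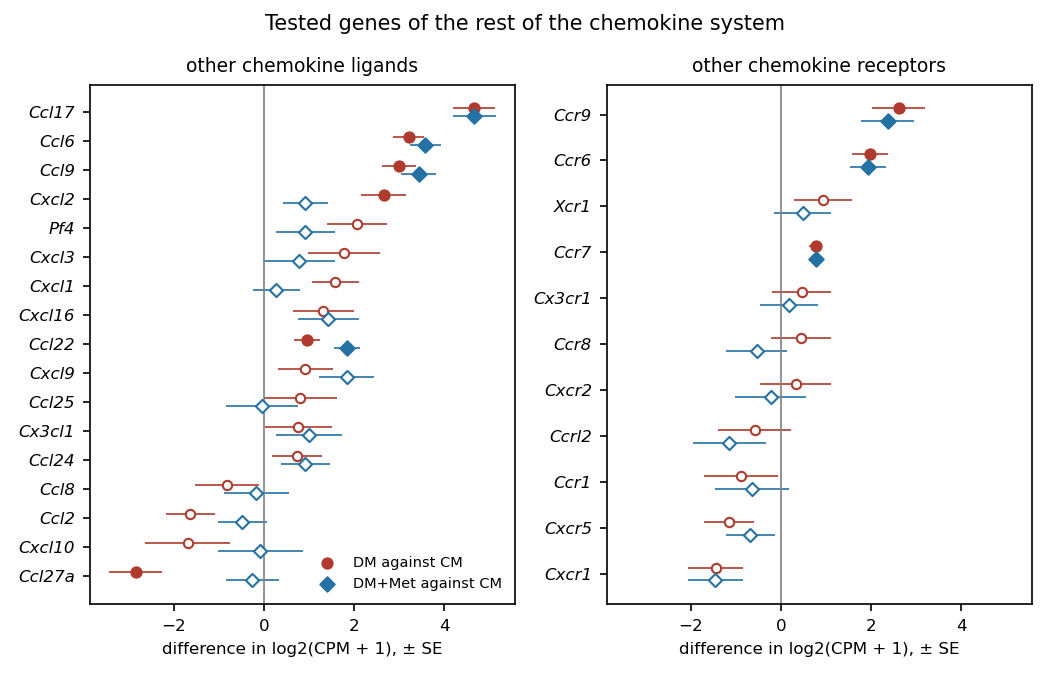
Difference from CM in log2(CPM + 1) on the x axis, with the standard error, for the 17 tested ligands and 11 tested receptors outside the 9 members; circles are DM and diamonds DM+Met, filled where the adjusted p was under 0.05. Ccl17, Ccl6 and Ccl9 among the ligands and Ccr9 and Ccr6 among the receptors lie farthest to the right in both media, and Cxcl2 and Ccl27a are filled in DM alone.

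Genes that carry the signal of chemokine receptors were called about as often as all rows. Of 31 tested, 2 rose and 3 fell in DM (16.1%, beside 16.9% of all rows), with a median of −0.08 beside 0.07. Pik3cg, the PI3-kinase subunit driven by Gi-coupled receptors, rose by 1.78 and Dock2, which activates Rac in migrating lymphocytes, by 0.89. Gng2, a G protein subunit, changed by −1.61, Rgs10, which shortens Gi signals, by −0.82 and Rac2 by −0.48. In DM+Met 1 rose, Dock2 (1.18), and 5 fell (19.4% in all, beside 15.3% of all rows), the largest being Rgs16 (−1.95), Gng2 (−1.25), Rgs10 (−1.02) and Gnai2 (−0.72). None of these calls was kept in all 6 fits that left out a library, although that of Pik3cg was lost only without DM library 1 (1.75 to 1.80). Without that library Gng2 was at −1.10 (adjusted p = 0.0503 with limma) and Rgs10 at −0.46 (0.122) in DM.

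The homing and adhesion list had calls in 1 direction. All 17 of its genes were tested, and 7 rose and none fell in DM (41.2%, beside 16.9% of all rows), with a median of 0.68. The list was chosen with earlier results known. The share of all rows was 21.3% where 10 reads were asked of every library. S1pr1, the receptor for exit from lymph nodes, rose by 2.99, Icam2 by 2.54, Klf2, the factor that drives S1pr1, by 2.53, and Cd69 by 1.94. In DM+Met 7 rose too (41.2%, beside 15.3% of all rows), with S1pr1 at 2.74, Icam2 at 2.36, Cd69 at 1.92 and Klf2 at 1.91. Of the 7 calls in each, 4 in DM (S1pr1, Klf2, Itgb1 and Cd69) and 2 in DM+Met (S1pr1 and Itgb1) were kept whichever library was left out. In DM+Met the call of Klf2 was lost without DM+Met library 2 and that of Cd69 without DM+Met library 1, and that of Icam2 was lost in both media without either DM or either DM+Met library (1.68 to 3.41 in DM). Cd69 and S1pr1, whose proteins oppose each other at the cell surface, were thus both above CM.

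Transcription factors that act on chemokine and receptor genes in T cells changed in both directions. Of 24 tested, 6 rose and 7 fell in DM (54.2%, beside 16.9% of all rows), in a list that was also chosen with earlier results known. Tbx21, which encodes T-bet, the factor known to drive Cxcr3 in type 1 helper cells, changed by −3.27 (adjusted p = 0.00691 with limma), from −4.24 to −2.30 over the fits without 1 library, and the call was lost without either CM library or DM library 2. Runx3, a partner of T-bet, changed by −1.40 in DM and −1.49 in DM+Met and was kept in all 6 fits of each. Cxcr3 and Ccl5, which are held to be targets of T-bet, did not pass and had positive differences in both media (0.17 to 1.38). Jun changed by −1.61 and Batf by −1.02 in DM, and Nfkb1 (1.26), Nr3c1 (1.12), Rela (1.04) and Nfatc1 (0.92) rose. In DM+Met 5 rose and 7 fell (12 of 24, beside 15.3% of all rows), with Foxp3 at 2.68, Rela at 0.99, Nr3c1 at 0.91 and Stat6 at 0.63, and with Tbx21 at −3.42, Prdm1 at −1.76, Runx3 at −1.49 and Junb at −1.09. Of the calls of this list 2 in DM, Runx3 and Nr3c1, and 1 in DM+Met, Runx3, were kept whichever library was left out.

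With methionine against DM none of the 100 tested genes of these 5 lists was called with limma, although 16 had an unadjusted p under 0.05, beside 9.69% of all rows. With limma-voom 1 was called, Foxp3 (2.10, adjusted p = 0.0129), with 18 before adjustment, beside 10.3%. Foxp3, the master factor of regulatory T cells, which use Ccr4, also passed with limma under library totals (2.41) and with 10 reads asked of every library (2.05). In the reported fit Foxp3 was at 2.05 (adjusted p = 0.158 with limma), and over its 17 alternatives the adjusted p was 0.0129 to 1, with 3 passing.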

How the data were processed

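CD4 T cell RNA was sequenced with a QuantSeq 3′-end kit from 500 ng of total RNA. The submitters' processing notes name Bowtie2, bedtools and the mm10 build without versions, and the counting annotation and strand setting are not given in the sources used here. The authors deposited log2 values of TMM-scaled CPM plus 1, to 3 decimals, for 23282 rows in each of 2 numbered files per medium. What the 2 files are is not in the labels, and they were taken as 2 replicate libraries (the study describes independent samples), so p-values measure only the spread between these libraries. Their equal steps gave whole reads (at least 99.776% of values up to 300 reads within 0.1 of a whole number), and a floor of 3 reads was a log2 value of 0.323 to 0.469. Floors and counting intervals cover counting error only.

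The 3 media entered one fit with limma 3.58.1 (R 4.3.3), in which eBayes used an intensity trend and had 6.87 prior degrees of freedom. The fit was tested on simulated data with the same spread setting for all rows and without the lowest rows. That test checks the code and not the error rate in these data. Rows needed 0.946 CPM (10 reads at the median depth) in 2 libraries and 15 reads in all, which kept 12770 rows and all 9 members. Tests were two-sided and adjusted by Benjamini-Hochberg over these rows at 0.05. Fold changes on this scale understate those of low genes. The alternatives were 2 scalings, 2 filters, pseudocounts of 0.1 and 5, limma-voom on the recovered reads, no trend, a robust prior, only the 2 media compared, a replicate block and leaving out each library. The members and lists were chosen with earlier results of these data known, and no list was tested as a set. From the ligand and receptor lists every called gene could be named, and from the others up to 4 per direction and comparison. Other genes named (Xcr1, Ccl2, Cxcl9, Cxcl10, Cxcl11, Cxcl12, Cxcl16, Fyco1) are receptors, ligands or an overlapping gene of members, chosen after their values were seen. All 184 list entries matched a row, and some genes are not reported here and were left out of the lists. Ccl22 is also a dendritic cell marker in the lists.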

Additional observations from a re-analysis of the deposited data

How the results depend on the processing

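With 2 libraries per medium, few calls among the members were stable. In DM against CM the count of called members fell from 2 to 1 under library totals without Rn45s, pseudocount 0.1 and no trend (Ccl3 each time), and under limma-voom and 10 reads in every library (Cxcr4). It was 0 with no filter and with only the 2 media, and 0 to 1 when 1 library was left out. In DM+Met against CM it was 3 under library totals, 0 under library totals without Rn45s and 1, Cxcr4, with only the 2 media. In DM+Met against DM it was 0 under every alternative run. Calls in the 5 lists went from 34 to 18 without a trend, 17 with only the 2 media and 14 to 20 without 1 library in DM, and from 32 to 13 without a trend and 7 to 28 without 1 library in DM+Met against CM. In DM+Met against DM they went from 0 to 1 under library totals, 10 reads in every library and limma-voom. Over all rows, the count in DM against CM went from 2154 to 795 with only the 2 media and 541 to 1061 without 1 library, the fewest without CM library 1. In DM+Met against CM it went from 1952 to 944 without a trend and 268 (2.10%) to 1622 without 1 library, the fewest without DM+Met library 2, so the shares of all rows given beside the counts change with the fit. It went from 7 to 55 in DM+Met against DM under library totals, with a median difference of 0.34. Library totals without Rn45s moved the share of calls that were higher in DM from 46.2% to 59.6% (median of all rows from 0.07 to 0.21), and library totals that in DM+Met against CM from 45.3% to 76.3%. The cause was not tested.

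None of the differences that turned sign was a call: Ccl5 in DM against CM without 1 library (−0.07 to 0.41), and, in DM+Met against DM, Xcl1 (−0.59 to 0.96), Cxcr4 (−0.13 to 1.15) and Cxcr6 (−0.22 to 0.17) without 1 library and Cxcr6 under library totals (0.33). In DM+Met against CM, Ccl4 (−0.10 to 0.44) and Ccr4 (−0.07 to 0.10) did so without 1 library. The replicate numbers did not pair the libraries (correlations of −0.025, 0.005 and −0.03 between same-numbered deviations), and with a replicate block the members called stayed at 2, 0 and 0, with adjusted p-values in DM against CM of 0.0326 for Ccl3 and 0.0288 for Cxcr4.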

Other observations

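Cxcl15, a chemokine of lung epithelium, had 193 reads in DM library 1 and none in the other 5 libraries, and did not enter the test. It was singled out after its values were seen. Eomes, a factor of cytotoxic cells, had 0 and 40 reads in CM, against 6 and 138 in DM, with 150 and 21 in DM+Met, so the libraries of each medium disagreed.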
